A study of Homo sapiens with 4 samples.

Results

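Loci with exactly 2 poly(A) sites, more than 1000 and at most 5000 nt apart, were examined in libraries of HEK293 cells, an established line of human embryonic kidney origin. The libraries were made by A-seq, which sequences the 3′ ends of polyadenylated RNA. Read positions on chromosomes 1 to 22 and X were pooled over the 4 libraries, the most read position of a strand took all positions within 25 nt as 1 site, and sites that averaged 1 RPM or more (RPM, the reads of a site scaled to a common library total) were kept. Around the most used site, every site within 10 kb on the same strand joined it as 1 locus, and sites with at least 5% of the locus were counted. Of 18156 loci, 6561 held 2 or more counted sites and 3830 held exactly 2. The distance window held 1537 of these, of which 979 had at least 50 reads over both sites in every library, and 558 had fewer and were left out. The 979 loci make up 20.4% of the 4793 loci of the series whose 2 most used sites passed the same read minimum. The loci were thus chosen by measured values, the site levels and read numbers of all 4 libraries, so levels are given as a description, and a site used mainly in 1 library could enter through that library.

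Cleavage and polyadenylation end a transcript a short way past a poly(A) signal. Where a transcript has a pair of poly(A) sites in its last exon, use of the proximal site, the one nearer the 5′ end of the transcript, gives a shorter 3′ UTR and use of the distal site a longer one, which holds more binding sites for microRNAs and RNA-binding proteins. Cleavage factor I (CF Im) recognises UGUA motifs ahead of the cleavage position, and CF Im 68 is one of its large subunits. CstF-64 is the part of the cleavage stimulation factor that contacts RNA, at U- and GU-rich sequence past the cleavage position. No annotation of hg19 was used here, so loci are named by position, and a locus may hold the ends of neighbouring genes as well as alternative ends of 1 gene.

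The 4 groups had 1 library each, with no replicate. They were untreated HEK293 cells (no siRNA), cells with a scrambled control siRNA, cells with an siRNA against CstF-64 and cells with an siRNA against CF Im 68. Each target was depleted with 1 double-stranded siRNA, and siRNA-treated cells were harvested after 3 days. The siRNA libraries of the targeted factors are called depletions here after their labels, and the transcripts of the targeted genes and markers of the cell line were not analysed here. Library totals ran from 7343112 reads under CstF-64 depletion to 15806975 without siRNA, and 6.25 to 6.87% of each library lay in the 979 loci. The median locus had 440 reads without siRNA, 408 with control siRNA, 185 under CstF-64 depletion and 412 under CF Im 68 depletion.

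The distal site was the more used one on average at 529 of the 979 loci (54.0%), and use was often one-sided. The proximal share is the percentage of the reads of both sites that lie at the proximal site. It was under 25% at 404 loci and over 75% at 284 loci without siRNA, with 291 loci between. After control siRNA the counts were 411, 281 and 287, and under CstF-64 depletion 395, 312 and 272. After CF Im 68 siRNA the low class was the smallest of the 4 libraries, with 286 loci under 25%, 339 over 75% and 354 between. The median share was 36.7% without siRNA, 36.8% with control siRNA, 41.9% under CstF-64 depletion and 52.2% under CF Im 68 depletion. Over the 4793 tested loci of the series the medians were 42.0%, 41.7%, 43.9% and 52.5%. These loci thus lay below the series in the control libraries and level with it under CF Im 68 depletion.

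**Figure D1:**
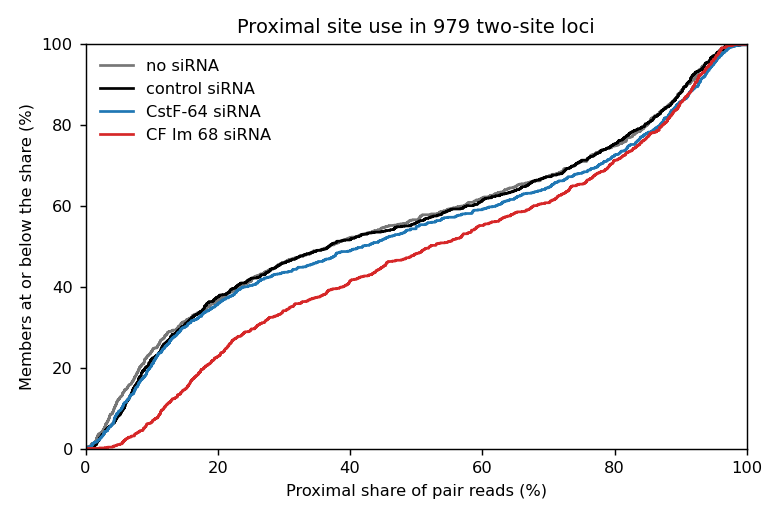
Cumulative percentage of the 979 two-site loci (vertical axis) at or below a given proximal share in percent (horizontal axis), 1 line per library. The lines of no siRNA and control siRNA run together with medians of 36.7% and 36.8%, and the line of CF Im 68 siRNA lies to the right of them over most of the range, with a median of 52.2%.

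The control libraries, which differed by the control siRNA treatment, set the background. Between them the share differed by a median of 0.114 percentage points, and by 4.05 points without regard to sign. By a two-sided Fisher's exact test of the reads with Benjamini-Hochberg adjustment over the 4793 loci, and a difference of at least 10 points, 81 of the 979 loci had a larger and 72 a smaller share with control siRNA. Over all tested loci the same rule called 10.6% and 11.1%. Such a test compares 2 libraries and not 2 conditions. The changes given for the depletions are set against this spread.

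Depletion of CF Im 68 came with a larger share of the proximal site at most of these loci. The share was above both control libraries at 622 loci (63.5%, against 59.1% of all tested loci) and below both at 186 (19%, against 19.3%). Over control siRNA the change had a median of 5.54 points, with quartiles of -0.689 and 14.8 points, and 6.34 points over no siRNA. A locus is called moved when the Fisher test against control siRNA passed an adjusted p of 0.05 and the share lay 10 points or more from control siRNA and from no siRNA, both times on the same side. By this rule 290 of the 979 loci (29.6%) were called proximal, beside 24.2% of all tested loci, and 26 (2.66%) moved to the distal site, beside 2.63%. The 290 loci had median shares of 15.4% and 16.4% in the no siRNA and control siRNA libraries, 22.6% under CstF-64 depletion and 43.9% under CF Im 68 depletion. Where sites and loci were chosen on the control libraries alone, 950 loci entered, of which 245 (25.8%) were called proximal, beside 20.4% of the 4574 loci tested under that choice, and 25 (2.63%) distal, beside 2.58%. With control siRNA as the only control, distal moves numbered 41 (beside 4.32% of all tested loci), and with no siRNA as the only control 69 (beside 8.89%). The changes of the 290 over control siRNA ran from 10.1 to 56.2 points, with a median of 21.5 points.

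**Figure D2:**
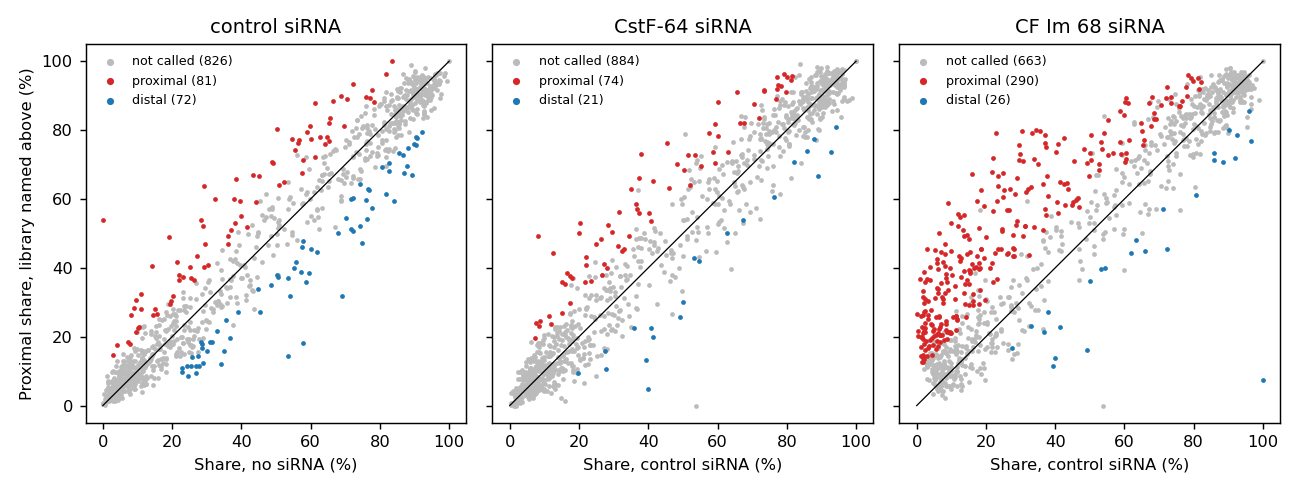
Proximal share in percent of each of the 979 loci in the library named above the panel (vertical axis) against no siRNA (left panel) or control siRNA (middle and right panels), with the line of equal shares. Red points were called proximal and blue points distal: 81 and 72 for the control siRNA library by the 2-library test, 74 and 21 under CstF-64 depletion and 290 and 26 under CF Im 68 depletion by the rule against both controls.

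The largest move to the proximal site lay on chromosome 14 (minus strand), with sites at 51101790 (proximal) and 51100360 (distal), 1430 nt apart. Its proximal share was 21.2% of 156 reads without siRNA, 23% of 248 with control siRNA, 31.2% of 176 under CstF-64 depletion and 79.2% of 572 under CF Im 68 depletion (95% exact Clopper-Pearson interval 75.6 to 82.5). The CF Im 68 library stood apart from the other 3, whose intervals ended at 28.4, 28.7 and 38.7%, and the adjusted Fisher's exact p against control siRNA was 3.96e-51. In RPM, the proximal site had 2.09 and 4.24 in the controls and 35.4 under CF Im 68 depletion, while the distal site had 7.78 and 14.2 in the controls and 9.30 under CF Im 68 depletion.

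Chromosome 5 held a pair of the 4 largest moves, both on the minus strand. At 32229749 and 32227115, 2634 nt apart, the share was 13.2% of 668 reads without siRNA, 16.1% of 448 with control siRNA, 35.2% of 145 under CstF-64 depletion and 67.2% of 991 under CF Im 68 depletion. Both depleted libraries lay above the controls there, and the locus was also called moved under CstF-64 depletion (adjusted Fisher's exact p 3.4e-05). At 32355531 and 32354457, 1074 nt apart, the share was 33.3% of 258 reads, 30.3% of 317, 31.9% of 185 and 79.8% of 985 in the same order of libraries. Here only the CF Im 68 library was high, and the intervals of the other 3 libraries overlapped one another.

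Between these in rank lay the pair at 113187986 and 113191204 on chromosome 4 (plus strand), 3218 nt apart. It had few reads, with shares of 7.87% of 89 reads without siRNA, 8.99% of 89 with control siRNA, 11.5% of 61 under CstF-64 depletion and 58.7% of 143 under CF Im 68 depletion (50.2 to 66.9). The distal site had 5.19 and 6.03 RPM in the controls, 7.35 RPM under CstF-64 depletion and 4.61 RPM under CF Im 68 depletion, and the proximal site went from 0.443 and 0.595 RPM in the controls to 6.57 RPM under CF Im 68 depletion.

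On chromosome 2 (plus strand), the sites at 170938360 and 170940616 gave shares of 33.8% of 216 reads without siRNA, 33.3% of 177 with control siRNA, 41.2% of 85 under CstF-64 depletion and 79.1% of 579 under CF Im 68 depletion. A second locus of that chromosome and strand, at 42557883 and 42559687, had 10.8% of 194 reads, 12% of 241, 23.7% of 93 and 55.6% of 412. In both loci the CF Im 68 library was highest and the CstF-64 library next, and the latter was called moved at the second locus only (adjusted Fisher's exact p 0.0421).

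The sites at 150192681 and 150190718 on chromosome 1 (minus strand) had a share of 27.0% of 604 reads without siRNA, 35.6% of 722 with control siRNA, 45.5% of 341 under CstF-64 depletion and 79.8% of 1029 under CF Im 68 depletion. The controls differed by more than their intervals (23.5 to 30.7 and 32.1 to 39.2), and the CF Im 68 library lay far above both. At 110102294 and 110100168 on chromosome 11 (minus strand), the proximal site was nearly unused in the controls, with 1.59% of 1007 reads and 6.57% of 289, and had 5.12% of 215 under CstF-64 depletion and 50.1% of 856 under CF Im 68 depletion. The distal site of that locus had 62.7 RPM without siRNA, 20.1 RPM with control siRNA and 33.4 RPM under CF Im 68 depletion, so that its level differed more between the controls than between control and CF Im 68 siRNA.

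The most deeply read of the 10 largest moves was on chromosome X (plus strand), with sites at 150573633 and 150577836, 4203 nt apart. Its share was 36.7% of 1961 reads without siRNA, 34.5% of 1514 with control siRNA, 49.1% of 922 under CstF-64 depletion (45.9 to 52.4) and 80.0% of 2962 under CF Im 68 depletion (78.5 to 81.4). Both depletions were called moved, and the distal site went from 78.5 and 73.7 RPM in the controls to 63.9 RPM under CstF-64 depletion and 46.4 RPM under CF Im 68 depletion. The proximal site went from 45.5 and 38.9 RPM to 61.7 RPM and 185 RPM. The last of the 10, at 98515306 and 98517062 on chromosome 15 (plus strand), had 25.1% of 203 reads, 21.9% of 247, 32% of 50 and 67.8% of 239.

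**Figure D3:**
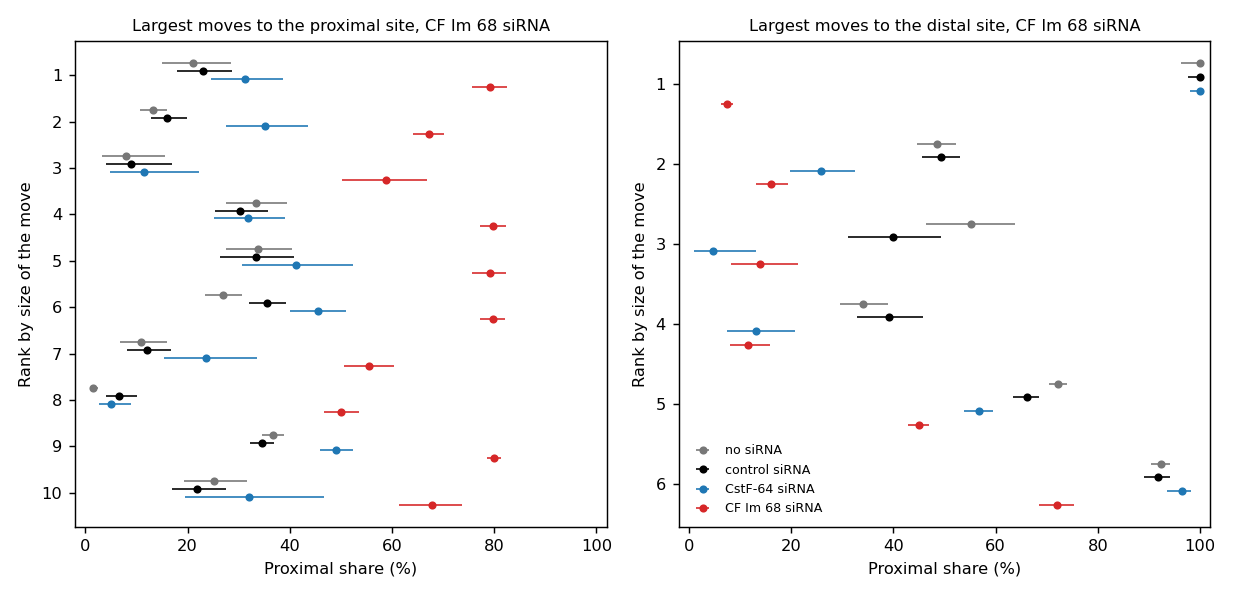
Proximal share in percent (horizontal axis) with exact Clopper-Pearson 95% intervals in the 4 libraries at the 10 largest moves to the proximal site (left) and the 6 largest to the distal site (right) under CF Im 68 depletion, by rank of the smaller of the differences from the controls. At all 10 loci on the left the CF Im 68 library lies above the other 3. At ranks 2 to 5 on the right both depleted libraries lie below the controls, and CstF-64 siRNA was called moved at ranks 2 to 4.

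The moves to the proximal site went with more reads at the proximal site at nearly every locus, and with fewer at the distal site at 60.3% of them. At 271 of the 290 moved loci (93.4%) the proximal site was above both controls in RPM under CF Im 68 depletion, beside 92.7% of the 1161 loci of the series that moved to the proximal site and 60.2% of all tested loci. The distal site was below both controls at 175 of the 290 (60.3%, beside 60.9%, and 39.7% of all tested loci) and above both at 48 (16.6%, beside 14.7%). Proximal gain and distal loss stood together at 156 loci, proximal gain without distal loss at 115 and distal loss alone at 19. The share ties the levels of both sites together, so that 1 of them had to differ at a moved locus. The median proximal level went from 3.54 and 4.43 RPM in the no siRNA and control siRNA libraries to 14.1 RPM, and the median distal level from 18.3 and 19.8 RPM to 15.6 RPM. The median ratio to control siRNA was 3.11 at the proximal and 0.748 at the distal site, and 1.14 for both sites together. In bulk RNA a change in the number of cells with a transcript and a change in its amount per cell cannot be told apart.

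**Figure D4:**
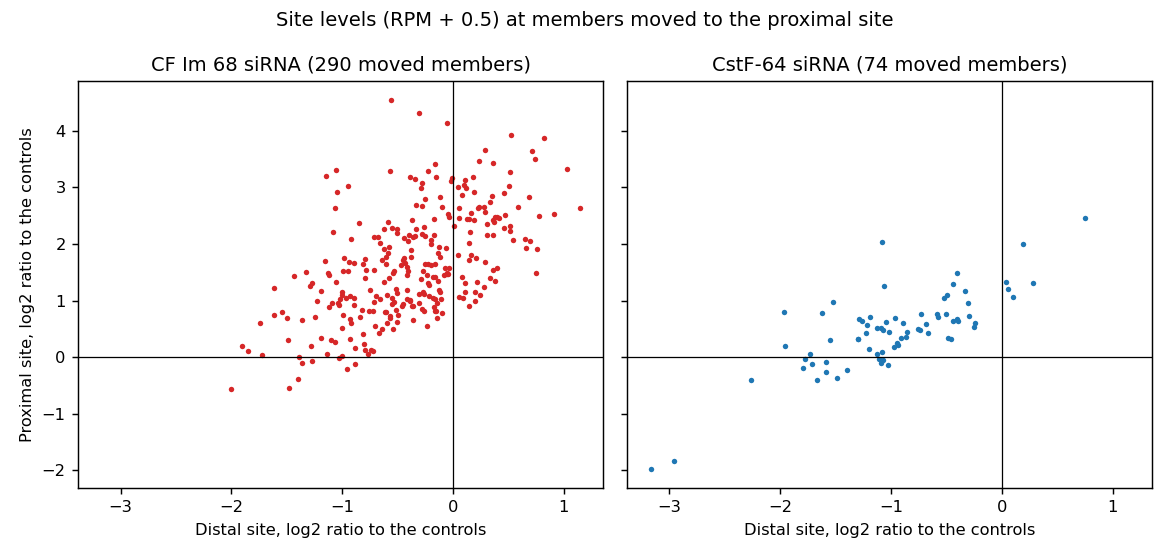
Log2 ratio of the proximal (vertical axis) and distal (horizontal axis) site level to the mean of both controls, from RPM plus 0.5, at the 290 loci called proximal under CF Im 68 depletion (left) and the 74 under CstF-64 depletion (right). Points on the left lie mostly above 0 at the proximal site (271 of 290 above both controls) and on both sides of 0 at the distal site, and those on the right lie mostly below 0 at the distal site (66 of 74 below both controls).

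Moves under CF Im 68 depletion differed with the share in the controls. Of 224 loci with a mean control share under 10%, 107 moved to the proximal site (47.8%), with median shares of 4.77% without siRNA, 6.22% with control siRNA and 15.8% under CF Im 68 depletion. Of all tested loci in that class, 35.7% moved to the proximal site. Sites were counted on the mean of all 4 libraries, so a proximal site of this class could reach 5% of its locus through the CF Im 68 library. Classes of control share, here and below, were not recounted with sites chosen on the control libraries alone. With 10 to 25% the count was 78 of 194 (40.2%, beside 31.2% of all tested loci of the class), and with 25 to 50% it was 59 of 134 (44.0%, beside 34.9%). With 50 to 75% it was 38 of 141 (27.0%, beside 21.1%), with 75 to 90% 8 of 167 (4.79%, beside 3.51%), and above 90% 0 of 119, as for 0 of all 332 tested loci. The classes thus followed the order seen over the whole series, and the differences from it were not tested. A share near 100% has no room for a rise of 10 points. A mean control share under 10% likewise has no room for a fall of 10 points from both controls. Moves to the distal site numbered 0 of 224 below 10%. At 10 to 25% they numbered 0 of 194, beside 0.498% of all tested loci of the class. They numbered 8 of 134 at 25 to 50% (5.97%, beside 2.56%) and 8 of 141 at 50 to 75% (5.67%, beside 4.38%). At 75 to 90% there were 4 of 167 (2.40%, beside 4.49%), and above 90% 6 of 119 (5.04%, beside 5.12%).

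Within the distance window, the percentage of moves to the proximal site was lower among more distant pairs in classes of 1000 nt, but not in steady order in classes of 500 nt. They made up 144 of 429 loci (33.6%) up to 2000 nt, 79 of 268 (29.5%) over 2000 and up to 3000 nt, 38 of 156 (24.4%) over 3000 and up to 4000 nt, and 29 of 126 (23%) over 4000 nt. In classes of 500 nt, from the shortest distance to the longest, it was 30.9, 37.2, 29.7, 29.0, 21.4, 29.3, 29.9 and 15.3%. The steps between neighbouring classes were not tested. The median change over control siRNA was 6.95, 5.66, 4.46 and 1.76 points in the same order. Control shares were higher at longer distances, with class medians of 31.7%, 39.0%, 40.2% and 41.2%, so the classes were also compared among loci with a control share under 50%. There the counts were 126 of 253 (49.8%), 66 of 147 (44.9%), 29 of 81 (35.8%) and 23 of 71 (32.4%). None of these distance classes was counted over all tested loci, of which 24.2% moved to the proximal site.

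**Figure D5:**
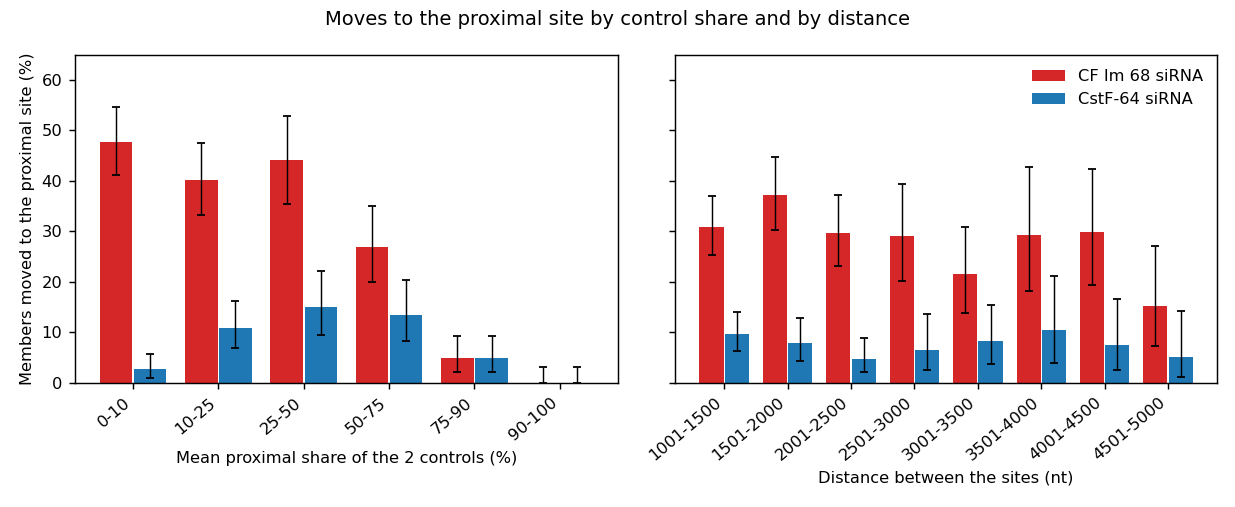
Percentage of loci called proximal (bars, with exact Clopper-Pearson 95% intervals that treat loci as independent) by mean control share in percent (left) and by distance between the sites in nt (right). After CF Im 68 siRNA the bars stand at 40.2 to 47.8% up to a control share of 50% and at 4.79% for 75 to 90%, and under CstF-64 depletion they are highest at 25 to 50%, with 14.9%.

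In nucleotides, the read-weighted mean distance of the ends from the proximal site had a median over the 979 loci of 1090 nt without siRNA, 1098.5 nt with control siRNA, 1052 nt under CstF-64 depletion and 910.5 nt under CF Im 68 depletion. Against control siRNA, the mean end lay at least 200 nt nearer the proximal site at 351 loci under CF Im 68 depletion and at least as much farther at 75. For CstF-64 siRNA the counts were 154 and 78, and for control siRNA against no siRNA 130 and 103. Against control siRNA, shortening by 1000 nt or more was found at 32 loci and lengthening at 3 under CF Im 68 depletion, and at 2 and 3 under CstF-64 depletion. Against no siRNA the counts were 37 and 5 under CF Im 68 depletion, 15 and 6 under CstF-64 depletion, and 3 and 0 with control siRNA. Counts by end distance were not made over all tested loci, so they cannot be set beside the series. At the 290 loci called proximal, the median end distance was 1490 nt without siRNA, 1488 nt with control siRNA and 1007 nt under CF Im 68 depletion.

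The 26 loci that moved to the distal site under CF Im 68 depletion had median proximal shares of 69.2% without siRNA, 64.7% with control siRNA, 56.8% under CstF-64 depletion and 44.6% under CF Im 68 depletion. Their distal site was above both controls in RPM at 22 loci (84.6%, beside 81.7% of the distal moves of the series) and their proximal site below both at 18 (69.2%, beside 78.6%). The largest of these moves, at 151530457 and 151532893 on chromosome 1 (plus strand), rested on a distal site with 0 reads in the other 3 libraries and 143 RPM under CF Im 68 depletion. Its proximal site had 6.14 and 11.5 RPM in the controls and 11.5 RPM under CF Im 68 depletion, so the proximal site was not lower than in the controls. This was 1 of 3 loci among the 979 with a site that had at least 99% of its reads in 1 library, and the other two such sites belonged to the control siRNA and no siRNA libraries.

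The next loci toward the distal site were low in both depleted libraries. At 60755271 and 60760068 on chromosome 14 (plus strand), 4797 nt apart, the proximal share was 48.5% of 685 reads without siRNA, 49.2% of 719 with control siRNA, 25.8% of 198 under CstF-64 depletion and 16.1% of 571 under CF Im 68 depletion. The proximal site went from 21.0 and 26.3 RPM in the controls to 6.95 RPM and 7.19 RPM under CstF-64 and CF Im 68 depletion. On chromosome 19 (minus strand), the sites at 54663836 and 54659387 had shares of 55.2% of 134 reads, 40% of 120, 4.69% of 64 and 13.9% of 122 for no siRNA, control siRNA and the CstF-64 and CF Im 68 depletions. The pair at 96687579 and 96689130 on chromosome 2 (plus strand) had 34.1% of 413 reads, 39.2% of 232, 13.2% of 114 and 11.6% of 285 in that order. These 3 loci were called moved to the distal site after either depletion, and each rested on the same control libraries.

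More reads supported the pair at 734622 and 731670 on chromosome 16 (minus strand), with 72.3% of 2381 reads without siRNA, 66.1% of 1391 with control siRNA, 56.8% of 1212 under CstF-64 depletion and 44.9% of 2232 under CF Im 68 depletion. The distal site had 41.8 and 35.1 RPM in the controls and 96.1 RPM under CF Im 68 depletion. At 49506883 and 49505592 on chromosome 20 (minus strand), the depletions stood on opposite sides of the controls, with 92.5% of 862 reads, 91.8% of 514, 96.5% of 282 under CstF-64 depletion and 72% of 700 under CF Im 68 depletion. The difference of CstF-64 from control siRNA at that locus was under 10 points and was not called.

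Depletion of CstF-64 came with fewer and smaller changes at these loci. By the rule against both controls, 74 of the 979 (7.56%) moved to the proximal site, beside 8.2% of all tested loci, and 21 (2.15%) to the distal site, beside 3.59%. With no siRNA as the only control the counts were 164 (beside 19% of all tested loci) and 87 (beside 13.4%), and with control siRNA as the only control 98 (beside 10.6%) and 34 (beside 5.28%). The share was above both controls at 458 loci (46.8%, against 42.7% of all tested loci) and below both at 279 (28.5%, against 31.4%). The change had a median of 1.44 points over control siRNA and 1.69 points over no siRNA. Its median absolute size of 4.02 points over control siRNA was close to the 4.05 points between the control libraries. With 7343112 reads in all, this library had the fewest reads per locus, and at the minimum of 50 reads the exact 95% interval of a 50% share runs from 35.5 to 64.5%.

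The 74 loci started at higher shares than those moved by CF Im 68 siRNA, with medians of 36.1% without siRNA, 37.4% with control siRNA, 57.7% under CstF-64 depletion and 62.6% under CF Im 68 depletion. Of them, 6 had a control share under 10%, out of 224 such loci (2.68%, beside 3.77% of all tested loci of that class). The distal site was below both controls in RPM at 66 of the 74 (89.2%, beside 90.8% of all loci of the series with a proximal move under CstF-64 siRNA). The proximal site was above both at 51 (68.9%, beside 73.8%). Median ratios to control siRNA were 1.32 at the proximal and 0.546 at the distal site. Levels in this library depended on the scaling, since the median log2 ratio of all loci to control siRNA was -0.19 by total reads and -0.01 with TMM factors. With TMM factors the distal site was below both controls at 61 of the 74 (82.4%, beside 85.2%) and the proximal site above both at 59 (79.7%, beside 81.7%). Over all 979 loci, the proximal site was above both controls at 36.1% and below both at 37.6% by total reads (37.6% and 36.6% of all tested loci), and at 46.1% and 30.4% with TMM factors (47.5% and 28.5%).

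The largest move to the proximal site under CstF-64 depletion, at 27829666 and 27830717 on chromosome 13 (plus strand), had shares of 4.71% of 191 reads without siRNA, 8.18% of 110 with control siRNA, 49.2% of 61 under CstF-64 depletion (36.1 to 62.3) and 32.7% of 107 under CF Im 68 depletion. Both depletions were called moved there. At 105921570 and 105924332 on chromosome 14 (plus strand) the share was 15.1% of 53 reads, 20.3% of 79, 52.9% of 68 and 30.4% of 112, and CF Im 68 siRNA was not called (adjusted Fisher's exact p 0.2). The pair at 89321819 and 89319992 on chromosome 6 (minus strand) had 10.9% of 396 reads, 12.5% of 257, 44.3% of 79 and 54.7% of 362, with both depletions called. The reads under CstF-64 depletion numbered under 100 at each of these loci, and their intervals spanned more than 20 points.

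At 29993742 and 29992359 on chromosome 15 (minus strand) the depleted libraries gave nearly the same share, 50% of 88 reads under CstF-64 depletion and 49.0% of 527 under CF Im 68 depletion, against 23% of 213 without siRNA and 20% of 315 with control siRNA. The distal site of that locus was lower under CstF-64 depletion, with 5.99 RPM against 10.4 and 18.7 RPM in the controls, and not under CF Im 68 depletion, with 21.0 RPM. At 45515152 and 45513384 on chromosome 13 (minus strand) the controls differed from each other, with 38.3% of 167 reads and 65.7% of 108, and the share was 91.2% of 68 under CstF-64 depletion and 64.7% of 133 under CF Im 68 depletion. The difference between the controls there was larger than that between CstF-64 and control siRNA.

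Among the 21 loci moved to the distal site under CstF-64 depletion, the 3 largest were those on chromosomes 19, 14 and 2 that were also called under CF Im 68 depletion. The pair at 125085741 and 125087594 on chromosome 9 (plus strand) was low under CstF-64 depletion alone, with 87.5% of 288 reads without siRNA, 89.1% of 229 with control siRNA, 66.7% of 57 under CstF-64 depletion and 87.2% of 164 under CF Im 68 depletion. At 52388443 and 52390414 on chromosome 5 (plus strand) the share was 68.0% of 253 reads, 50% of 246, 30% of 70 and 36.3% of 226. The difference between the controls was nearly as large as that between CstF-64 and control siRNA. This locus was also called distal under CF Im 68 depletion. The proximal site was below both controls at 19 of the 21 loci by total reads (beside 87.2% of the distal moves of the series) and at 16 with TMM factors (beside 78.5%). The distal site was above both at 16 by total reads (beside 68%) and at 16 with TMM factors (beside 82.6%).

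Compared directly by the 2-library test, 270 of the 979 loci had a larger proximal share under CF Im 68 depletion than under CstF-64 depletion (beside 24.9% of all tested loci), and 42 a smaller one (beside 5.05%). The median difference was 3.81 points. So that no control library served both sides, the CF Im 68 library was also compared with control siRNA and the CstF-64 library with no siRNA. Of the 343 loci with a larger share in the first comparison (beside 30.6% of all tested loci) and the 164 in the second (beside 19%), 82 were common, which is 23.9% of the first and 50% of the second list. Of all 979 loci, 35.0% were on the CF Im 68 list and 16.8% on the CstF-64 list. With the controls exchanged the lists held 379 loci for CF Im 68 (beside 35%) and 98 for CstF-64 (beside 10.6%), with 62 in common, 16.4% and 63.3% of them. These lists held 38.7% and 10.0% of all 979 loci. Starting shares limit which loci can enter either list. The overlap was neither counted over all tested loci nor tested.

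Two-site loci at other distances had lower percentages of moves to the proximal site under CF Im 68 depletion. Moves to the proximal site were found at 36 of 558 loci (6.45%) with sites 26 to 200 nt apart, 141 of 692 (20.4%) with sites over 200 and up to 1000 nt apart and 41 of 354 (11.6%) with sites over 5000 nt apart, beside 29.6% here. Loci with 3 or more sites whose 2 most used sites lay in the same distance window had such moves at 378 of 947 (39.9%). After CstF-64 siRNA the same classes gave 5.38%, 6.79%, 9.32% and 11.6%, beside 7.56% here. The median control shares of the two-site classes were 36.2%, 36.9% and 47.2%, beside 36.8% here. Moves to the distal site under CF Im 68 depletion made up 0.896%, 1.88% and 4.52% of these two-site classes, beside 2.66% here. These differences between classes are descriptions without a test.

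None of the 4 loci described next, which are among the 5 with the most reads, was called moved. At 56551766 and 56555364 on chromosome 12 (plus strand), which had the most reads, the share was 33.3% of 34836 reads without siRNA, 30.3% of 25665 with control siRNA, 21.7% of 15185 under CstF-64 depletion and 22% of 27737 under CF Im 68 depletion. Both depleted libraries lay below both controls with intervals that did not overlap, yet by less than 10 points from control siRNA, and the locus was not called. On chromosome 19 (plus strand), the sites at 34891233 and 34893319 gave 77.8% of 17348 reads, 73.5% of 18711, 83.9% of 9051 and 78.9% of 19427 for no siRNA, control siRNA and the CstF-64 and CF Im 68 depletions. The pair at 2011977 and 2015509 on chromosome 16 (plus strand) gave 83.1%, 82.2%, 85.6% and 79.8% in that order, and the pair at 6917851 and 6920839 on chromosome 17 (plus strand) gave 84.9%, 89.3%, 86.8% and 88.6%. In the last pair the controls differed by more than either depletion differed from control siRNA.

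Some well-read loci varied little in all 4 libraries. The 4 with the narrowest range of share were chosen for it among those with at least 1000 reads in every library, and their values are a description. At 13885096 and 13889273 on chromosome 19 (plus strand) the share was 6.58%, 8.41%, 7.66% and 8.09% for no siRNA, control siRNA and the CstF-64 and CF Im 68 depletions. The pair at 150280782 and 150282215 on chromosome 1 (plus strand) had 90.5%, 91.8%, 92.7% and 91.6%. At 75190570 and 75191779 on chromosome 15 (plus strand) the values were 93.6%, 93.6%, 93.7% and 91.4%, and at 41894836 and 41892281 on chromosome 19 (minus strand) they were 7.60%, 9.22%, 8.11% and 9.91%. These loci had a dominant site, proximal at 2 of them and distal at the other 2.

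Chromosomes differed in how many of their loci moved under CF Im 68 depletion. The lowest percentages were those of chromosome 19, with 7 of 73 loci (9.59%, beside 10.4% of all tested loci of that chromosome), chromosome 16, with 5 of 44 (11.4%, beside 14.4%), and chromosome 22, with 3 of 26 (11.5%, beside 11.7%). The highest were those of chromosome 13, with 9 of 16 (56.2%, beside 37.5%), and chromosome X, with 17 of 34 (50%, beside 31.4%). Chromosomes 16, 19 and 22 were grouped after these values were seen. Together they had 15 moved of 143 loci (10.5%), against 275 of 836 (32.9%) on the other chromosomes. Among loci with a control share under 50% the counts were 13 of 72 (18.1%) and 231 of 480 (48.1%). In tested loci of the series outside the 979, the same chromosomes had 51 moved of 402 (12.7%) and the others 820 of 3412 (24.0%). After CstF-64 siRNA 6.29% of the 143 loci were called proximal (beside 7.96% of the 402), and 7.78% of the 836 (beside 8.41% of the 3412). The fewest reads of a locus in any library had a median of 222 on these 3 chromosomes and 175 on the others. The part of depth or of other differences between the chromosomes was not tested.

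A weak additional site was common. At 274 of the 979 loci a site of at least 1 RPM but under 5% of the locus was present, and at 152 of them such a site lay between the counted ones. Among the 274, moves to the proximal site numbered 88 under CF Im 68 depletion (32.1%), and of the 705 without such a site 202 (28.7%). By strand, 143 of 519 loci on the plus strand (27.6%) and 147 of 460 on the minus strand (32.0%) moved. All 979 loci together had 29.6%, beside 24.2% of all tested loci. The splits by weak site and by strand were not counted over all tested loci, and their differences were not tested.

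A site took positions within 25 nt of its most read one, so its width was limited by the rule. Among sites with at least 100 reads over the control libraries, the most read position held a median of 62.6% of the control reads at 698 proximal sites, with quartiles of 47.3 and 81.8%, and 68.5% at 814 distal sites, with quartiles of 51.3 and 84.7%. Both had a median of 11 positions with reads. Among sites with at least 50 reads in every library, the most read position without siRNA was also the most read one with control siRNA at 91.4% of 534 proximal and 93.9% of 624 distal sites. The same held under CstF-64 depletion at 87.6% and 91.3%, and under CF Im 68 depletion at 87.6% and 92.8%. The mean position within a site was compared with no siRNA, without regard to sign. The median difference was 0.255 nt at proximal and 0.222 nt at distal sites under CF Im 68 depletion. It was 0.299 and 0.243 nt under CstF-64 depletion, and 0.195 and 0.162 nt with control siRNA.

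At the edges of the rule, the shortest pair inside lay on chromosome X (plus strand) at 47088390 and 47089393, 1003 nt apart, with shares of 71.5% of 2909 reads, 51.1% of 2094, 49.1% of 2105 and 46.4% of 3593 in the order no, control, CstF-64 and CF Im 68 siRNA. There the untreated library stood apart from the 3 siRNA libraries. The nearest pair outside, 998 nt apart on chromosome 11, had 8.22%, 11.4%, 13.0% and 17.2%. The longest pair inside, at 56113488 and 56118488 on chromosome 12 (plus strand), 5000 nt apart, had 82.8%, 87.4%, 92.7% and 91.6%, and the nearest outside, 5015 nt apart on chromosome 19, had 60.8%, 74.2%, 47.6% and 44.6%. With the fewest reads inside, 50 in 1 library, a locus on chromosome 3 had 43.8%, 28%, 16.4% and 27.2%, and the nearest outside, with 49 reads in 1 library, had 44.2%, 68%, 63.3% and 54.2%. The weakest counted site of any of these loci had 5.01% of its locus, and the strongest site left out of any locus 4.999%.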

How the data were processed

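For each library the authors deposited raw read counts of 3′ ends at every position of each strand, with no normalization; the genome build was hg19 (GRCh37), per the submitters' processing notes. Poly(A) RNA was partly digested with RNase I and reverse transcribed from an anchored oligo-dT primer, per the labels' protocols. The aligner and read filters are not given in the sources used here. Internal priming was not separated, and PCR copies count as reads, so exact intervals cover counting error only.

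Sites, loci and tests followed the rules given above, with Python 3.11.15, pandas 2.3.3, NumPy 2.4.6 and SciPy 1.17.1; TMM factors came from edgeR 4.0.16. Counts were scaled to RPM by library totals over all chromosomes. The scripts were tested on simulated data. Loci described singly were, by rule, the 10 largest moves to the proximal and the 6 to the distal one under CF Im 68 depletion, the 5 in each direction under CstF-64 depletion, the 5 with most reads (1 of which is not reported here), the 4 steadiest and those at the distance limits. The loci and lists were chosen with earlier results of these data known.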

Additional observations from a re-analysis of the deposited data

How the results depend on the processing

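The loci chosen singly, 37 when a locus counts once in each list, gave 331 values under other settings. A locus that no longer entered under a setting gave no value there. Of the 331 values, 329 kept their call, none lost it or changed sign, and 2 gained one with no siRNA as the only control. Those 2 were the locus with the most reads, on chromosome 12, and the one with the shortest distance, on chromosome X. The largest distal move under CF Im 68 depletion had 0 distal reads in the controls. It could not enter where sites were chosen on the control libraries. Of 170 other values, 141 stayed within 1.5 times of a count or within the interval of a percentage. With 200 reads in every library, 454 loci were left, so counts are lower by construction. CF Im 68 depletion then had 120 proximal and 7 distal moves (26.4% and 1.54%, beside 21.5% and 1.80% of the 2166 loci tested). CstF-64 depletion had 30 and 9 (6.61% and 1.98%, beside 8.54% and 3.83%). Calls numbered 36 and 27 between the controls and 107 and 16 between the depletions, and were not counted over all tested loci. The distal site was then below both controls at 70% and 96.7% of the proximal moves under CF Im 68 and CstF-64 depletion. A change of at least 20 points gave 138 and 5, 18 and 5, 25 and 16, and 131 and 11 in the same order, and 98.6% of the CF Im 68 moves with the proximal site above both controls. With no siRNA as the only control, CF Im 68 siRNA gave 69 distal moves and 87.3% with the proximal site above both controls, and CstF-64 siRNA 164 proximal and 87 distal moves. With control siRNA alone, distal moves numbered 41 after CF Im 68 and 34 under CstF-64 depletion. A site minimum of 10% gave 33 distal moves under CstF-64 depletion (3.32%, beside 4.32% of the loci tested). It also gave 123 loci with a larger share with control siRNA. A change without a p gave 37 distal moves under CstF-64 depletion. All tested loci were not counted for the change of at least 20 points, the change without a p, or the 123 loci. TMM factors gave 79.7% of CstF-64 moves with the proximal site above both controls. For the other settings the cause was not tested. Levels of single sites under CstF-64 depletion were added as a result after the data were seen. No paired analysis was possible because each group has 1 library. The CstF-64 library had the fewest reads.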
